A study of Mus musculus with 7 samples.

Results

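The Notch receptors and their ligands were followed through 10 genes: the receptors Notch1, Notch2, Notch3 and Notch4, the ligands Jag1, Jag2, Dll1 and Dll4, the receptor-modifying enzyme Lfng, and Rbpj, the DNA-binding partner of the activated receptor. All non-control probes whose accession matched one of these genes were taken, whatever their values, which gave 14 of the 41174 probes on the array. Notch2 had 3 probes, Jag1 and Lfng had 2 each, and the other genes had 1. Of the 14, 10 probes of 8 genes were bright enough in the prostate RNA to be tested. The study compared prostate RNA from 2 groups of C57Bl/6 mice. The 4 control samples came from mice with the ROSA(N1IC) allele, which the labels call wild-type for the Notch1 intracellular domain (NICD). The 3 PB-NICD samples came from ARR2PB-Cre;ROSA(N1IC) mice, in which Cre driven by a probasin-based prostate promoter turns on that domain, and in which, per the labels, prostatic intraepithelial neoplasia forms. Both groups therefore carry the ROSA allele and only the PB-NICD mice carry Cre, so there is no group with Cre alone. The age of the mice and the lobe of the prostate are not given in the labels.

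Notch receptors are single-pass membrane proteins that meet their ligands, of the Jagged and Delta-like families, on a neighbouring cell. Binding leads to cleavage by an ADAM protease and then by gamma-secretase, which frees the intracellular domain to enter the nucleus and join RBPJ and a Mastermind coactivator on genes such as Hes1, Hey1 and Nrarp. In the prostate the pathway is known for its part in the balance of basal and luminal epithelial cells. Notch3 is best known in smooth muscle and pericytes, and Notch4 and Dll4 in endothelial cells.

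Each value below is a log2 ratio of prostate sample over a universal mouse reference RNA hybridised to the same array, so a value of 0 means equal signal after normalization. A change subtracts the control mean from that of PB-NICD, on the log2 scale. A probe was called changed at an adjusted p below 0.05 (limma, two-sided, Benjamini-Hochberg adjustment over all 21278 probes tested). Nothing in the labels says that the samples are separate animals, so p-values measure the spread between these samples, which may be technical.

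The sample channel was dim throughout, with a median spot signal of 69 to 107 over a median background of 53 to 55, and the scanner rated 44.8% to 66.8% of probes as well above background there. Arrays of one group resembled each other, with r over probes of 0.920 to 0.959 among controls and 0.941 to 0.952 among PB-NICD arrays. Between the groups r was 0.809 to 0.896. The prostate identity of the tissue was plain in both groups: Pbsn, which encodes probasin, was well above background on all 7 arrays, with a mean ratio of 10.87 in controls. Controls 1 and 2 and PB-NICD 1 lay on one slide, and controls 3 and 4 with PB-NICD 2 and 3 on the other. On PB-NICD 1 a few local backgrounds, up to 47872, had been marked by the scanner as non-uniform. Unless they were replaced by the array's median background, the correction raised dim signals on that array, a net signal of 50 becoming 306 in place of 57.7. Marked backgrounds were replaced on every array. On control 3 a net sample signal of 50 would otherwise have become 72.1 in place of 59.3. All values are those after replacement unless stated, and both sets for PB-NICD 1 are compared after the members are described. The likeness of PB-NICD 1 to its group depended on the replacement. With backgrounds as deposited and outlier spots kept, its r with PB-NICD 2 and PB-NICD 3 was 0.810 and 0.808.

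The 250 bases before the RefSeq start site are shown for the 2 genes whose probes were called, Notch1 and Notch3, and for Lfng, the only member with the longer of 2 motifs searched. The sequences are RefSeq's, build GRCm38.p6, 5′ to 3′ on the gene's strand. The capitals mark TGGGAA or GTGGGAA, forms of the core sequence that RBPJ binds, on either strand. GTGGGAA contains TGGGAA.
Notch1, chr2:26503823-26504072, minus strand: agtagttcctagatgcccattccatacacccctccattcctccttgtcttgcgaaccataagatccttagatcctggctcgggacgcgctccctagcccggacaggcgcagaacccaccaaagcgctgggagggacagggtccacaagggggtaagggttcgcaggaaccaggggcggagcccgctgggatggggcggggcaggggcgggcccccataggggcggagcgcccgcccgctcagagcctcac
Notch3, chr17:32166891-32167140, minus strand: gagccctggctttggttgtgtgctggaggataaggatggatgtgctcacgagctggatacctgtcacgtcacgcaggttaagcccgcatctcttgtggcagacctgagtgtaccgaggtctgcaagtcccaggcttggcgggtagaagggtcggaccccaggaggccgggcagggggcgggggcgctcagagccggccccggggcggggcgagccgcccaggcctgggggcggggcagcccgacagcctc
Lfng, chr5:140607091-140607340, plus strand: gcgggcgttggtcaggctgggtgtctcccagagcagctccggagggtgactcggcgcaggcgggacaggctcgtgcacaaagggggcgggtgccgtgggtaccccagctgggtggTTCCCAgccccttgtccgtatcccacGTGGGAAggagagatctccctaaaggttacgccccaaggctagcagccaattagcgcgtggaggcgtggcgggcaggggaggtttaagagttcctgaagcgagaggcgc
Neither motif occurred in the Notch1 or Notch3 window. In the Lfng window TGGGAA occurred on both strands, and the copy on the gene's strand was part of GTGGGAA. The 10 genes had 12 such windows, since Dll1 and Rbpj have 2 start sites each. GTGGGAA was found in 1 of them, against 5.42% of the 32851 windows of all genes. TGGGAA was found in 3, those of Lfng and both of Rbpj, against 21.6% of all windows. The Rbpj windows overlap and share a copy. These matches describe letters only, and the arrays hold no measure of binding.

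Among the 10 tested member probes, those of Notch1 and Notch3 rose in PB-NICD prostate and none fell. Over all tested probes 8.23% were called, 3.63% higher and 4.61% lower. The median change was 0.19 over the 10 member probes and -0.02 over all tested probes. The control and PB-NICD arrays did not overlap at 5 of the 10 member probes (Notch1, Notch3, 1 of the Notch2 probes, Jag2 and 1 of the Lfng probes), against 25.2% of all tested probes. These 10 are the probes bright enough to test and not the whole set, and Notch3 was bright enough only through the PB-NICD arrays.

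**Figure D1:**
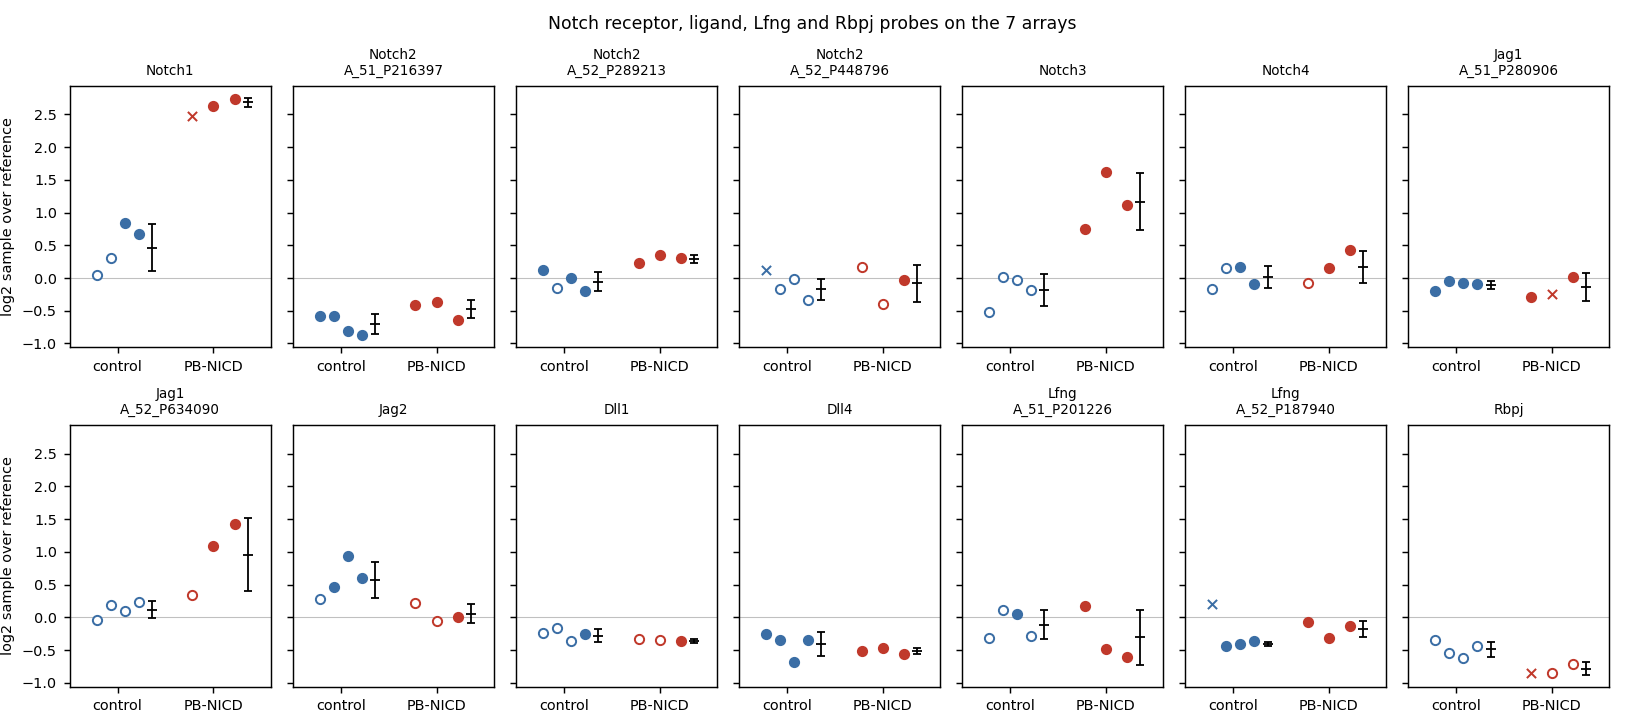
Log2 ratio of sample over reference (vertical axis) for each of the 14 member probes on the 4 control arrays (blue) and the 3 PB-NICD arrays (red), in the order of replicate numbers within a group. Filled points had a sample signal well above background, open points did not, crosses are outlier spots left out of the means, and the black mark is the mean with its SD. Notch1 and Notch3 show the widest gaps between the groups, and most other probes lie between -1 and 1.

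Notch1, the receptor whose intracellular part the transgene carries, showed the largest change of the 10 tested probes. Its ratios in controls 1 to 4 were 0.05, 0.30, 0.84 and 0.67. In PB-NICD 2 and PB-NICD 3 they were 2.63 and 2.74, and PB-NICD 1 read 2.47 on a spot that was left out of the test. That spot was marked for uneven pixels in the reference channel only, and its sample signal of 261 lay over a background of 50. All PB-NICD values, the left-out spot included, were well above all control values, and the 2 slide-1 controls were lower than the slide-2 controls. The raw sample signals show the same gap: 66, 68.5, 96 and 90 in controls, against 261, 443 and 353.5 in PB-NICD. The controls of slide 1 were not well above background, so Notch1 RNA in control prostate was close to the detection limit of this probe.

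The mean Notch1 ratio was 0.47 ± 0.36 (SD, n = 4) in controls and 2.68 ± 0.07 (SD, n = 2) in PB-NICD. The change was 2.22 ± 0.21 (SE), a 4.65-fold rise, with an adjusted p of 0.000321 and a 95% interval of 1.74 to 2.70. With the left-out spot kept it was 2.15, adjusted p = 6.11e-05. With it kept and the marked backgrounds of all arrays as deposited, it was 1.56 and not called (adjusted p = 0.125). Within slide 2 the change was 1.93 (adjusted p = 0.000242). Slide 1 gave no test, as the left-out spot was that of PB-NICD 1, its one transgenic array. With that spot kept the slide-1 difference was 2.30, as large as on the other slide. A fit with slide as a fixed block gave the same 1.93 (adjusted p = 3.69e-05). With that spot left out its estimate came from slide 2 alone, so it is not a second check. No source used here places the probe inside or outside the stretch of Notch1 in the transgene, so RNA of the transgene and of the mouse's own Notch1 gene could not be told apart.

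**Figure D2:**
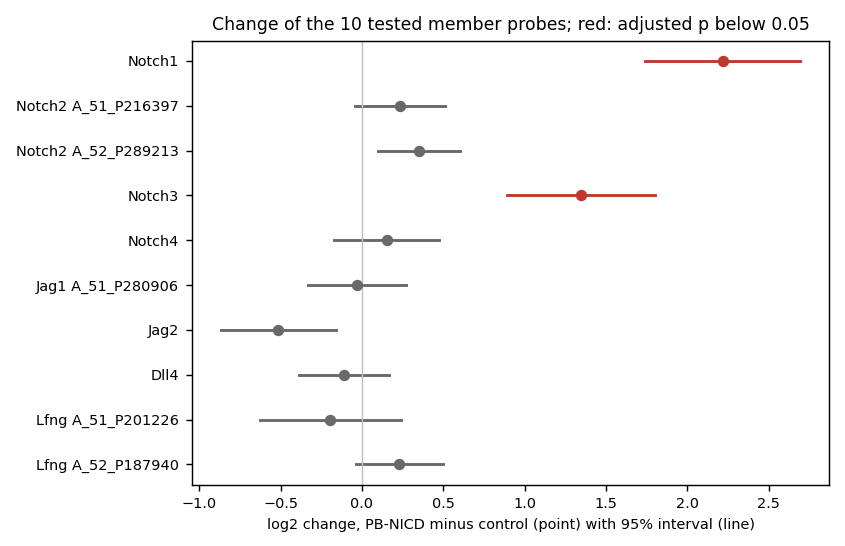
Change of the 10 tested member probes, PB-NICD minus control on the log2 scale (horizontal axis), as the estimate (point) and its 95% interval (line). The Notch1 and Notch3 intervals lie wholly above 0.8, and the other 8 estimates lie between -0.52 and 0.35.

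Notch3, a receptor whose intracellular part is shorter than that of Notch1, was the other member that rose. Control ratios were -0.52, 0.02, -0.03 and -0.18, and the PB-NICD ratios were 0.75, 1.63 and 1.12 in PB-NICD 1, 2 and 3. The groups did not overlap, and PB-NICD 1 was the lowest of its group. No control array was well above background for this probe, whereas all 3 PB-NICD arrays were. Testing required at least 3 such arrays, so the probe entered the test only through the group where it was high. Its call and the absence of overlap are therefore not independent of that filter. Raw sample signals were 57 to 66 in controls, near the local background of 54 to 63, and 108, 170 and 129 in PB-NICD. The means were -0.18 ± 0.25 (SD, n = 4) and 1.17 ± 0.44 (SD, n = 3). The change was 1.35 ± 0.20 (SE), adjusted p = 0.0028, with a 95% interval of 0.89 to 1.80. With no filter on dim probes the adjusted p was 0.0019. Because no control signal was rated above background, the rise was also read against a detection floor in the sample channel. For this each control array was given its lowest signal rated above background, or the probe's own where that was higher. The PB-NICD mean of the sample channel over their mean was 2.27-fold. That ratio carries no sampling error, so it is not a lower limit of the rise. Its scaling, with intensities also equalised between arrays, was not that of the fit. Other scalings gave smaller log2 changes than the fit, 0.80 with the sample channel alone and 0.46 with median centring.

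The Notch3 difference was 1.48 within slide 2 (adjusted p = 0.00302). On slide 1, which holds 1 PB-NICD array and 2 controls, it was 1.00. As on every test within that slide, its p (adjusted p = 0.0364) assumes that the lone array varies like the controls. A fit blocked on slide gave 1.29 (adjusted p = 0.000707). It was lost with median centring in place of loess, at 0.46 (adjusted p = 0.103), where the median of all probes moved to 0.24. It was also lost when the marked local backgrounds of all arrays were used as deposited, at 1.13 (adjusted p = 0.118).

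Notch2, a receptor widely expressed alongside Notch1, was well detected, and neither of its tested probes was called. At probe A_51_P216397, well above background on all 7 arrays, the control ratios were -0.57, -0.58, -0.80 and -0.87 and the PB-NICD ratios -0.42, -0.37 and -0.64. The PB-NICD arrays sat mostly above the controls, with PB-NICD 3 among them. The change was 0.23 ± 0.12 (SE), adjusted p = 0.321, with an interval of -0.04 to 0.51.

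At Notch2 probe A_52_P289213 the control ratios were 0.12, -0.15, 0.01 and -0.20 and the PB-NICD ratios 0.23, 0.36 and 0.30. Here the groups did not overlap, although the gap between control 1 and PB-NICD 1 was narrow. The means were -0.05 ± 0.14 (SD, n = 4) and 0.30 ± 0.06 (SD, n = 3), and the change was 0.35 ± 0.11 (SE), adjusted p = 0.0965. Slide 1 alone gave 0.25 (adjusted p = 0.619) and slide 2 alone 0.42 (adjusted p = 0.173). A fit blocked on slide gave 0.35 (adjusted p = 0.0777). The third Notch2 probe, A_52_P448796, was well above background on 1 array only and was not tested. Its kept ratios ran from -0.33 to -0.01 in controls and from -0.39 to 0.17 in PB-NICD. The brightest probe, A_51_P216397, passed the threshold in 2 alternatives, at 0.73 with the sample channel alone (adjusted p = 0.0446) and 0.54 with median centring (adjusted p = 0.0194), both above its interval in the fit used here.

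Notch4, a receptor known mainly from endothelium, gave control ratios of -0.16, 0.15, 0.17 and -0.09 and PB-NICD ratios of -0.07, 0.15 and 0.42. The groups overlapped, and only PB-NICD 3 was above every control. The change was 0.15 ± 0.15 (SE), adjusted p = 0.616, with an interval of -0.17 to 0.48. Within slide 1 it was -0.06 and within slide 2 0.25, neither called.

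Among the ligands no probe was called. Jag2, a Jagged-family ligand, had the lowest estimate of the tested members. Its ratios were 0.27, 0.47, 0.94 and 0.61 in controls and 0.22, -0.06 and 0.01 in PB-NICD. All PB-NICD values were below all control values, and PB-NICD 1 lay just under control 1, which shares its slide. The means were 0.57 ± 0.28 (SD, n = 4) and 0.06 ± 0.15 (SD, n = 3). The change was -0.52 ± 0.16 (SE), a fold of 0.700, with an adjusted p of 0.080. Only 1 of 3 PB-NICD arrays and 3 of 4 control arrays were well above background.

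The Jag2 difference depended on the setting. Slide 1 alone gave -0.15 (adjusted p = 0.788) and slide 2 alone -0.80 (adjusted p = 0.026). It passed the threshold in a fit blocked on slide, at -0.54 (adjusted p = 0.0427), in the authors' deposited value table, at -0.56 (adjusted p = 0.0207), and without control 1, at -0.61 (adjusted p = 0.0458). With the scanner software's own processed signals it was -1.17 (adjusted p = 0.0158). With none of the settings did it turn positive.

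Jag1, the other Jagged-family ligand, was represented by 2 probes that read differently. At A_51_P280906, well above background on all arrays, the control ratios were -0.20, -0.05, -0.08 and -0.10, and PB-NICD 1 and 3 read -0.28 and 0.01. PB-NICD 2, an outlier spot left out of the test, read -0.24. The PB-NICD values straddled the controls, and the change was -0.03 ± 0.13 (SE), adjusted p = 0.937, with an interval of -0.33 to 0.27. It was 0.10 within slide 2 and -0.16 within slide 1, neither called.

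The second Jag1 probe, A_52_P634090, was well above background on PB-NICD 2 and 3 only and fell below the criterion for testing. Its control ratios were -0.05, 0.20, 0.09 and 0.23, and its PB-NICD ratios 0.34, 1.09 and 1.43. The high values were those of the 2 PB-NICD arrays of slide 2, and PB-NICD 1 lay close to the controls. The ratio to the detection floor, found as for Notch3, was 1.53-fold. PB-NICD 1 entered it at its own signal, which was not well above background, so it is no lower limit either. With no filter on dim probes the difference of 0.84 was called (adjusted p = 0.0463), at a raw signal of 98 to 129.5 in the 2 bright arrays. The 2 Jag1 probes therefore disagree, the brighter probe showing no rise above 0.27 within its interval. No source used here says which transcripts each probe detects.

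Dll4, a Delta-like ligand known from vessel sprouting, was well above background on all 7 arrays. Its control ratios were -0.26, -0.34, -0.68 and -0.34 and its PB-NICD ratios -0.52, -0.47 and -0.56. The PB-NICD values lay within the range of the controls. The change was -0.11 ± 0.12 (SE), adjusted p = 0.672, with an interval of -0.39 to 0.16. Within slide 1 it was -0.22 and within slide 2 -0.0045, neither called.

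Dll1, another Delta-like ligand, was spotted 10 times on each array and was the one member with a within-array error. Its mean ratios were -0.31, -0.16, -0.40 and -0.26 in controls and -0.33, -0.35 and -0.40 in PB-NICD. The SD over its spots on one array was 0.17 to 0.25, and the group means differed by -0.08. That SD is of single spots and each array value is a mean of spots, so it is not the error of this difference. The probe was well above background on 1 control and 1 PB-NICD array and was not tested. With no filter its adjusted p was 0.828.

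Lfng, the Fringe glycosyltransferase that alters which ligands a receptor answers to, was not called at either probe. At A_51_P201226 the control ratios were -0.32, 0.11, 0.05 and -0.28 and the PB-NICD ratios 0.18, -0.49 and -0.61. PB-NICD 1 was the highest array and PB-NICD 2 and 3 the lowest, so the difference was 0.28 within slide 1 and -0.43 within slide 2, neither called. The pooled change was -0.19 ± 0.19 (SE), adjusted p = 0.635.

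At the brighter Lfng probe, A_52_P187940, controls 2 to 4 read -0.43, -0.41 and -0.37 and PB-NICD 1 to 3 read -0.08, -0.32 and -0.13. Control 1, an outlier spot left out of the test, read 0.21. Without that spot the groups did not overlap and the change was 0.23 ± 0.12 (SE), adjusted p = 0.313. With it the control range covered all PB-NICD values, so the absence of overlap rests on the spot that was left out. The slide-2 difference was 0.17 with outlier spots kept.

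Rbpj, which carries the signal of all 4 receptors to DNA, had no sample signal well above background on any array and has no tested value. Its ratios were -0.35, -0.54, -0.63 and -0.44 in controls, -0.85 and -0.72 in PB-NICD 2 and 3, and -0.85 on the outlier spot of PB-NICD 1. The PB-NICD values were the lower ones, although PB-NICD 1 turns to the highest with its backgrounds as deposited. Since neither group was detected above background, no fold is given. With no filter the difference was -0.29 (adjusted p = 0.356).

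**Figure D3:**
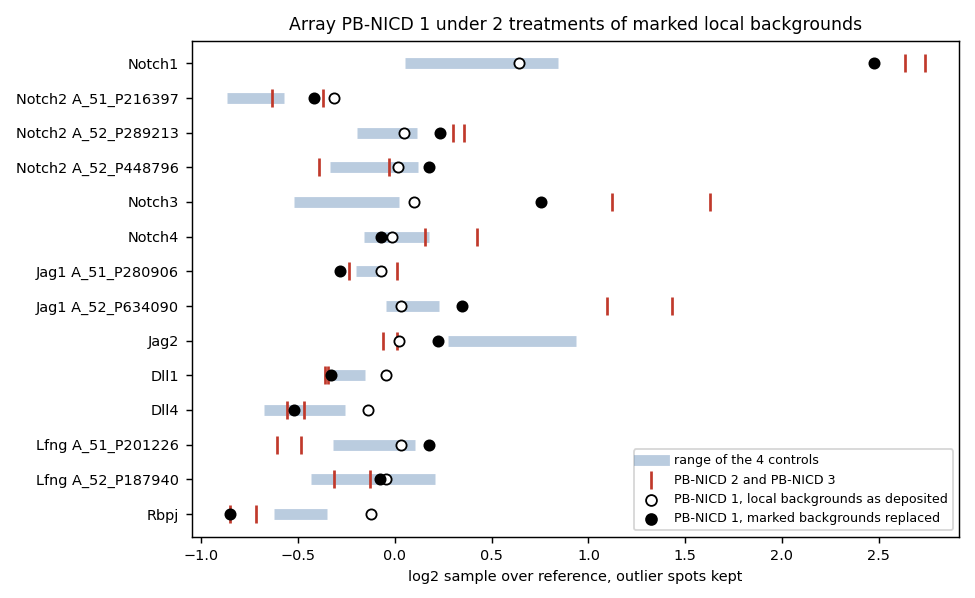
Log2 ratio of the 14 member probes (horizontal axis, outlier spots kept) on array PB-NICD 1 with the marked local backgrounds as deposited (open circles) and replaced by the array's median background (filled circles), beside PB-NICD 2 and 3 (red ticks) and the range of the 4 controls (blue bars). For Notch1 the replaced value, 2.47, lies near PB-NICD 2 and 3, and the value as deposited, 0.64, lies within the control range.

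The treatment of PB-NICD 1 moved member values in both directions. With backgrounds as deposited Notch1 read 0.64 on that array, Notch3 0.10 and the dim Jag1 probe 0.03, against 2.47, 0.75 and 0.34 with the marked backgrounds replaced. Rbpj read -0.13 as deposited, the highest of the 7 arrays, and -0.85 after replacement. Dll4 read -0.14 and -0.52, Dll1 -0.05 and -0.33, and Jag2 0.02 and 0.22. At Jag1 probe A_51_P280906 the values were -0.07 and -0.28. The Notch2 probes, in the order given above, read -0.31, 0.04 and 0.01 as deposited and -0.42, 0.23 and 0.17 after replacement. Notch4 read -0.01 and -0.07. The Lfng probes read 0.03 and -0.05 as deposited, and 0.18 and -0.08 after replacement. With backgrounds as deposited and outlier spots kept, so that the Notch1 spot of this array counted, the Notch1 change was 1.56 ± 0.46 (SE), adjusted p = 0.125, and was not called. No member probe was called in that setting, and 3 had an unadjusted p below 0.05 (limma). The authors' deposited value table was taken as it stands, and whether it had passed through a like correction is not given. In it Notch1 on PB-NICD 1 was 2.73 and Notch3 was 0.95, against controls of 0.24 to 0.71 and -0.47 to 0.18. Over all probes that table correlated with PB-NICD 1 at r = 0.831 as deposited and 0.990 after replacement.

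Of the genes that the pathway acts on, 5 rose as well. Of 13 tested probes from a list of 10 Notch target genes, 6 probes of 5 genes were higher and none lower, beside 3.63% and 4.61% of all probes. Over the list the median change was 0.28. Heyl, a Hes-related repressor, rose by 2.87 ± 0.11 (SE, adjusted p = 5.53e-07) at its brighter probe and by 1.90 at the other. Nrarp, a feedback inhibitor that binds the NICD complex, rose by 2.81 ± 0.30 (SE, adjusted p = 0.000366). Hes1, the best-known repressor of the family, rose by 1.37 ± 0.14 (SE, adjusted p = 0.000312).

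Hey1 rose by 1.76 ± 0.41 (SE, adjusted p = 0.0273), with PB-NICD 2, at 2.27, inside the control range of 1.32 to 2.28. The Hey1 change was 1.34 on slide 2 alone (adjusted p = 0.208). On slide 1, with its 1 PB-NICD array, the difference was 2.38. Of 3 Dtx4 probes, 1 rose, by 1.16 (adjusted p = 0.000545), and the other two read -0.09 and 0.02. With the backgrounds as deposited, Hes1 (1.19, adjusted p = 0.0106) and the brighter Heyl probe (2.48, adjusted p = 0.00204) stayed called. Nrarp, Hey1, Dtx4 and the second Heyl probe, with changes of 2.18, 1.02, 0.80 and 1.43, were not called in that setting. With the scanner software's processed signals Hey1 was not called (1.41, adjusted p = 0.268). With median centring the second Heyl probe (0.48, adjusted p = 0.162) and Dtx4 (0.35, adjusted p = 0.0742) were not called. The mean ratio over the 13 target probes was 0.05 to 0.24 on control arrays and 1.00 to 1.08 on PB-NICD arrays. It was about equal in all 3 PB-NICD samples.

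The machinery between ligand and target was read from a second list. Of a list of 37 pathway genes outside the members, 26 were tested with 39 probes. Of these, 1 probe was higher, 1 lower and 37 not called, with a median change of 0.08. That lies near the 3.63% higher and 4.61% lower of all tested probes. Snw1, a nuclear cofactor of the RBPJ complex, rose by 0.48 ± 0.11 (SE, adjusted p = 0.0287) at 1 probe, while its other probe, also well above background on all arrays, read 0.11 (adjusted p = 0.725). Furin, the protease that cuts the receptor on its way to the surface, fell by 0.42 ± 0.10 (SE, adjusted p = 0.0363). Neither was called within a single slide. With backgrounds as deposited they read 0.29 and -0.59 and were not called (adjusted p = 0.567 and 0.101). Both passed in a fit blocked on slide (Snw1 adjusted p = 0.0213, Furin adjusted p = 0.025), and Furin turned to 0.21 with median centring (adjusted p = 0.428). The protease genes Adam10 (0.69, adjusted p = 0.396) and Adam17 (-0.05, adjusted p = 0.845), and the coactivator gene Maml1 (0.36, adjusted p = 0.161), were not called.

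Markers of the cell types that could carry the members were read beside them. In whole tissue, fewer cells of a type and less RNA per cell cannot be told apart. The counts below stand beside 3.63% higher and 4.61% lower among all tested probes. Of 13 pericyte and smooth muscle probes, the cells in which Notch3 is best known, none was higher and 1 was lower (Tagln, -0.65, adjusted p = 0.0302, and 0.02 with median centring). Their mean ratio was 1.83 to 2.08 on control arrays and 1.50 to 1.80 on PB-NICD arrays. The median change of these probes was -0.31, with 2 of 13 above 0. Of 7 endothelial probes 1 was lower (Emcn, -0.81, adjusted p = 0.0383), with list means of 0.07 to 0.29 in controls and 0.06 to 0.08 in PB-NICD. The 0.29 was that of control 4, and the other controls were at 0.07 to 0.08. The median change of the endothelial list was 0.008, with 4 of 7 probes above 0. Cdh5, a defining endothelial gene, was well above background on at most 1 array.

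Of 8 basal epithelial probes 4 were lower and none higher, beside 4.61% lower and 3.63% higher among all tested probes. Krt5, the basal keratin, fell by 1.74 ± 0.16 (SE, adjusted p = 0.000161), and the list mean was 0.98 to 1.12 in controls and 0.33 to 0.49 in PB-NICD. Of 11 luminal probes Krt19 was higher (1.00, adjusted p = 0.0328) and Sbp lower (-4.85, adjusted p = 0.0429), with list means of 4.10 to 4.61 and 3.66 to 4.13. These means include the large Sbp fall, while the median change of the list was 0.05, with 7 of 11 probes above 0. Within slide 2 neither was called (Krt19 adjusted p = 0.0559, Sbp adjusted p = 0.235). The same held with processed signals (adjusted p = 0.0516 and 0.134). Of 11 immune probes 1, for Cd4, was lower (-3.56, adjusted p = 2.74e-05). The list mean, which includes the Cd4 fall, was 0.42 to 0.53 in controls and -0.06 to 0.35 in PB-NICD. The median change of that list was -0.04, with 4 of 11 probes above 0. Of 5 probes for urothelium and seminal vesicle, 1 was higher, Upk3a, an umbrella-cell protein (5.11, adjusted p = 0.000561), on 2 values per group. The mean of that list ranged from 0.70 to 4.08 over the controls and from 1.75 to 3.97 over PB-NICD. Its median change was -0.49, with 2 of 5 probes above 0. With backgrounds as deposited on all arrays, Krt5, Cd4 and Upk3a stayed called, and Tagln, Emcn, Krt19 and Sbp were not. The part of these cell types in the Notch1, Notch3 and Jag2 differences was not tested.

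The probes nearest to Notch1 and Notch3 in their pattern over the 7 arrays were found by the root mean square difference of control-centred log2 ratios, among 15866 named probes. Nearest to Notch1 were Defb2, a beta-defensin, at 0.194, then B4galnt2, Zfp185, Pgap4 and the water channel Aqp5, up to 0.231. Nearest to Notch3 were Fmo1, a flavin monooxygenase, at 0.0385, and further off the chemokine Cxcl17, the glutathione transferase Gsta3 and Ivns1abp, the last at 0.189. These are descriptions of likeness over 7 arrays and carry no test.

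**Figure D4:**
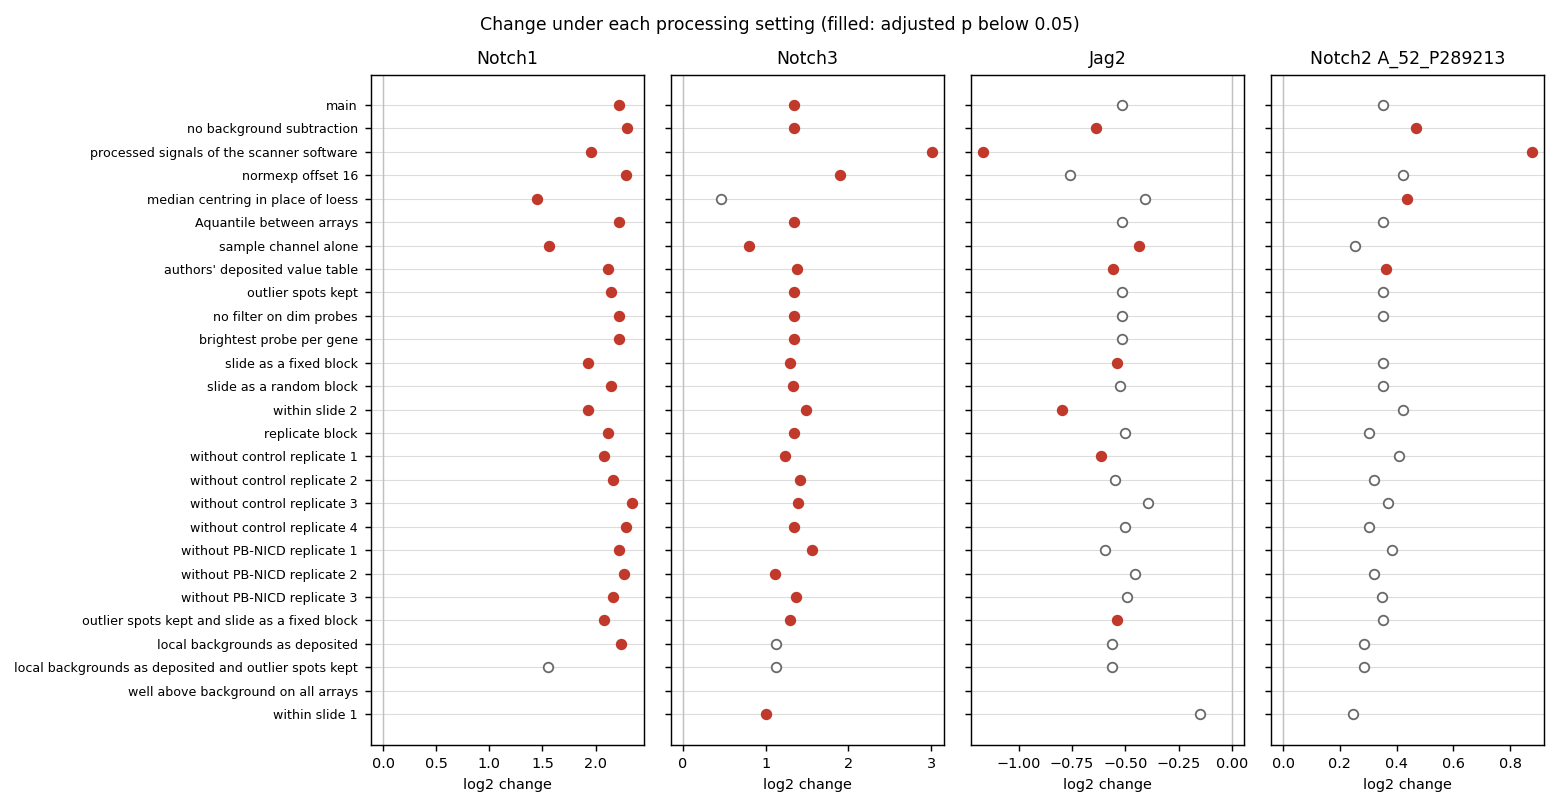
Log2 change of Notch1, Notch3, Jag2 and Notch2 probe A_52_P289213 (horizontal axes) under each processing setting (vertical axis), with filled points where the adjusted p was below 0.05. Notch1 is open only with backgrounds as deposited and outlier spots kept, Notch3 is open there, under median centring and with backgrounds as deposited alone, and Jag2 and Notch2 change sides of the threshold while keeping their sign.

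Across the settings the Notch1 change was 1.45 to 2.34 and was called in 23 of the 24 alternatives that gave a value. The exception is the one with backgrounds as deposited and outlier spots kept. The alternative with backgrounds as deposited alone leaves the Notch1 spot of PB-NICD 1 out and so does not test it. Notch3 kept its direction in all 25 and was called in 22. The Notch2 probe A_52_P289213 was called in 4 of 24 alternatives and Jag2 in 8 of 25, each with the sign it had in the fit above. The authors' deposited value table gave calls at 4 member probes: Notch1 (2.11, adjusted p = 1.69e-06), Notch3 (1.38, adjusted p = 0.00035), Jag2 and that Notch2 probe (0.36, adjusted p = 0.0263). That table gave 4876 calls among 24839 probes.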

How the data were processed

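Per the labels' protocols, total prostate RNA was extracted with Trizol and made into cDNA carrying the red of a pair of Alexa Fluor dyes, with a universal reference RNA in the green one on every array and no dye swap. Per the file headers, Agilent Feature Extraction 10.7.3.1 read the spots. Of its deposited intensity columns, the median signals of spot and local background were taken. The deposited LogRatio is log10 of red over green processed signal. Deposited flags mark spots that are outliers, well above background or on non-uniform background. The authors also deposited a value table that behaves as log2 of red over green, with column medians of -0.01 to 0.00 and a correlation with its own array of 0.989 to 0.995. How it was normalized is not given in the sources used. On PB-NICD 1 the fit of normexp was distorted by 22 marked local backgrounds in the sample channel: a net signal of 50 became 306, and 57.7 once they were replaced.

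In limma 3.58.1 (R 4.3.3) the marked backgrounds were set to the array's median background, a step chosen after seeing the data. This was followed by normexp with an offset of 50, loess within arrays, removal of control and outlier spots (6.02% to 17.8% of spots per array), and averaging of the spots of a probe. The offset understates changes of dim probes. A probe was tested where the scanner rated its sample signal well above background on at least 3 arrays and it had at least 2 values a group, by lmFit and eBayes. Mean spot signals are not in the files, so medians were used. Accessions were named through RefSeq's GRCm38.p6 table, which gave symbols to 24375 of 41174 probes. Of the 10 member genes all matched the promoter table. The method was tested on simulated data. Alternatives were other background, normalization, channel and filter choices, slide or replicate number as a block, and each array left out.

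The genes named were every member probe, the called genes of the pathway and target lists (at most 6 a list), and the 5 probes nearest to each called member, of which 1 is not reported here. Genes named as markers, or as uncalled pathway genes, were chosen after their values were seen. The members and lists were chosen with earlier results of these data known. No sample was set aside. Precision is limited by the 4 control and 3 PB-NICD arrays.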

Additional observations from a re-analysis of the deposited data

How the results depend on the processing

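Under the settings tried Notch1 kept its direction, from 1.45 (median centring) to 2.34, and its call in all but 1. With local backgrounds as deposited and outlier spots kept, added after seeing the data, it was 1.56 (adjusted p = 0.125), no member probe was called (0, with 3 at an unadjusted p below 0.05, limma) and 729 probes were called in all, 14.95% of them higher. It had no value within slide 1, or when a probe had to be well above background on all arrays. The count of member probes called, 2 in the report, was 4 without background subtraction, with processed signals, with the sample channel alone and in the authors' deposited value table. It was 3 with median centring, no filter, slide as a fixed block and within slide 2, and 1 within slide 1. It was 0 of 4 tested where all arrays had to be well above background, a filter that removed Notch1 and Notch3 (limma, at 1620 calls over all probes and 0 members at an unadjusted p below 0.05). With local backgrounds as deposited, added after seeing the data, it was 1, and 495 probes were called, 15.96% of them higher, against 1752 and 44.1%. Counts over all probes were 5108 with median centring (93.0% higher), 4876 in the authors' table, 2642 with slide as a fixed block, 3043 with outlier spots also kept (an added alternative), 976 within slide 1 and 1165 within slide 2. Leaving out 1 array gave 969 (without PB-NICD 2) to 1839 calls in all and 2 to 3 member calls, Notch1 from 2.08 to 2.34 and Notch3 from 1.12 to 1.55. For Notch1, leaving out PB-NICD 1 returned the estimate of the main fit, since its spot was already out. Leaving out PB-NICD 2 or PB-NICD 3 left Notch1 with only 1 PB-NICD value. Signs turned at 4 uncalled probes. Notch4 was -0.063 and Lfng A_51_P201226 0.28 within slide 1. Dll4 was 0.026 with processed signals, 0.29 with median centring and 0.0063 with backgrounds as deposited, with outlier spots left out or kept. Jag1 A_51_P280906 was 0.11 with processed signals, 0.12 with median centring, 0.016 in the sample channel alone, 0.10 within slide 2, 0.0073 with the replicate block, 0.076 with backgrounds as deposited (0.0068 with outlier spots also kept) and between -0.18 and 0.12 with 1 array left out. The cause of these moves was not tested. Notch3 was 3.01 with processed signals and 0.80 in the sample channel alone, called in both. Aquantile changes no ratio by construction.

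Replicate numbers do not pair the samples: same-numbered samples correlated in their deviations at 0.339, -0.237 and 0.102. With the replicate block Notch1 was 2.11 (adjusted p = 0.000773), 2 member probes and 1410 probes were called. Signal over background limits the values, since 8 of the 14 member probes were well above background on 4 arrays or fewer, Rbpj among them on none.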
